A study of Mus musculus with 15 samples.

Results

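Gadd45a, Gadd45b, Gadd45g, Ddit4, Otud1, Slc5a3 and Dusp1 are 7 stress-related genes out of the 19937 genes named on the array. They were selected on their signal in heart muscle cells, which was higher on day 3 after iron ions than in sham controls, so the day 3 difference is described here and not tested. Each gene was read by its only probe set with 1 gene symbol. All 7 passed a filter that kept genes with a mean log2 signal over 5.5125, which left 9968 genes for the tests.

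The Gadd45 proteins are small nuclear proteins without enzyme activity of their own. They bind and activate the kinase MAP3K4, which feeds the stress kinases p38 and JNK, and they also bind cell cycle and DNA repair proteins. Dusp1 is a phosphatase that removes the activating phosphates from p38 and JNK, so it opposes the same kinases. Ddit4, also called REDD1, restrains the growth kinase complex mTORC1 through the TSC1 and TSC2 proteins and is induced by low oxygen, energy stress and glucocorticoids. Slc5a3 carries myo-inositol, an osmolyte, into cells together with sodium, and Otud1 is a deubiquitinase of the OTU family.

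RNA was measured on 15 arrays of isolated left ventricular cardiomyocytes, the contractile cells of the main pumping chamber. The donors were male C57Bl/6NT mice, 8 to 9 months old, exposed over the whole body to 0.15 Gy of iron ions (1 GeV per nucleon, near 151 keV per µm) or sham-exposed. The sham group had 2 arrays from day 1 and 1 from day 3, treated as 3 controls, and the iron groups had 3 arrays on day 1, 3 on day 3 and 2 each on days 7, 14 and 28. No sham arrays of days 7, 14 or 28 were used, so time and exposure cannot be told apart on those days. All groups, sham included, went through collagenase digestion and stepwise return of calcium, which per the labels can leave a few inflammatory or endothelial cells. The labels do not say whether each array is a different mouse, so the p-values cover the array-to-array spread, and that may be technical.

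The deposited values were log2 signals, and array medians lay between 4.96 and 5.13. All 10 cardiomyocyte markers had signals from 11.06 to 12.89, near the top of the scale. Array pairs within a group differed by a median of 0.110 to 0.179 per gene, except for the pair of day 28, which differed by 0.0726. The day 28 arrays had 0 identical values among the 9968 genes and were kept as 2 arrays. Signals of different probe sets are not compared with each other, and in such bulk samples fewer cells of a type and less RNA per cell cannot be told apart.

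The stretches of DNA in front of the 7 genes are shown because the genes were high together on day 3. The sequences are RefSeq's on GRCm38.p6, 7 of 7 genes were matched, and each line runs 5′ to 3′ on the gene's own strand within the 250 bases before the annotated start. Capitals mark the motifs found, on either strand, except in Slc5a3, which held none of those searched and is shown by the bases next to its start.
Gadd45a: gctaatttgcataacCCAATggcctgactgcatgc
Gadd45b: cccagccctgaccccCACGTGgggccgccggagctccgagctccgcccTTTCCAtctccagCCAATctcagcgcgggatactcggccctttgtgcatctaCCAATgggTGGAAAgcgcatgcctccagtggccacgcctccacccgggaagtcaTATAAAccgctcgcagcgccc
Gadd45g: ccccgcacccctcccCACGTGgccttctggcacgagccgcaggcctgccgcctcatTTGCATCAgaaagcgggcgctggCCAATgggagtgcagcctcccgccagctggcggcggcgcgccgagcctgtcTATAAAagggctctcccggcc
Ddit4: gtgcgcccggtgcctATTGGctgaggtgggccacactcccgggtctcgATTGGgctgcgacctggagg
Otud1: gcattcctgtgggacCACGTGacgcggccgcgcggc
Slc5a3: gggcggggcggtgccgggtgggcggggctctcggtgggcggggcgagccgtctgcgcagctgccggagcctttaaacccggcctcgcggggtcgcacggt
Dusp1: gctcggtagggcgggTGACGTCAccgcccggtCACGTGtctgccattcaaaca

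On the plus strand lie Gadd45b (chr10:80929891-80930065), Gadd45g (chr13:51846518-51846668), Otud1 (chr2:19657662-19657697) and Slc5a3 (chr16:92058222-92058321). On the minus strand lie Gadd45a (chr6:67037474-67037508), Ddit4 (chr10:59951888-59951955) and Dusp1 (chr17:26508578-26508630). The E-box CACGTG stood in 4 of the 7 windows (Gadd45b, Gadd45g, Otud1 and Dusp1) and in 6.02% of all 32851 windows of the same length. The CCAAT box, the letters of the NF-Y site, stood in Gadd45a, Gadd45b, Gadd45g and Ddit4, where the minus strand reads ATTGG on the line, and in 33.85% of all windows. The TATA box letters TATAAA were found 27 to 22 bases before the start of Gadd45g and 46 to 41 before that of Gadd45b (12.37% of all windows), and in no other of the 7.

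The remaining motifs were found in 1 window each or in none. The full cyclic AMP response element TGACGTCA was in Dusp1 (1.55% of all windows), 143 to 136 bases before its start, next to its E-box. The ATF4 composite letters TGATGCAA were in Gadd45g on the minus strand (0.79%), and the core of the NFAT5 site TGGAAA was in Gadd45b on both strands (18.58%). The AP-1 letters TGACTCA were in 0 of 7 windows and in 4.46% of all. The windows held 59.2% to 74.8% G and C, against a median of 52.4% over all windows, and the letters shown are matches, not measured binding.

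The Gadd45 family was higher in all 3 day 3 arrays than in any sham array. Gadd45a, the member first known from DNA damage, had sham signals of 6.14, 6.55 and 6.24. Its iron signals were 6.35, 6.48 and 6.68 on day 1 and 6.95, 6.82 and 6.91 on day 3. Later they were 6.67 and 6.53 on day 7, 6.48 and 6.53 on day 14, and 6.20 and 6.17 on day 28. The day 3 arrays were above all 12 others, and the day 28 arrays lay within the sham range. The difference from sham was 0.58 (SE 0.111, a fold of 1.5) on day 3, and 0.19 on day 1, 0.29 on day 7, 0.20 on day 14 and -0.12 on day 28. This was the smallest day 3 difference of the 7, with the smallest residual SD (0.135).

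Gadd45b, which signals to p38 and is a known target of NF-kB and TGF-beta, had sham signals of 6.89, 7.00 and 6.98. On day 1 the iron arrays spread from 6.50 through 7.04 to 7.87, and on day 3 they were 8.25, 7.84 and 8.53. They were 8.27 and 7.72 on day 7, 7.78 and 6.95 on day 14, and 6.97 and 6.94 on day 28. The sham arrays agreed closely, both day 7 arrays lay above them, 1 of 2 day 14 arrays did, and the day 28 arrays were back among them. The difference from sham was 1.25 on day 3 (SE 0.299, a fold of 2.38), 1.04 on day 7 (SE 0.334) and 0.41 on day 14 (SE 0.334). On day 1 it was 0.18 (SE 0.299).

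Gadd45g, the family member often linked to differentiation and growth arrest, had sham signals of 6.63, 6.28 and 5.89. The iron arrays gave 6.00, 6.74 and 7.51 on day 1 and 7.78, 7.24 and 7.79 on day 3. They then gave 7.76 and 6.34 on day 7, 6.48 and 5.88 on day 14, and 5.94 and 5.89 on day 28. The day 7 arrays disagreed: the first was as high as day 3 and the second lay within the sham range. The day 3 difference was 1.34 (SE 0.379, a fold of 2.52), followed by 0.78 on day 7 (SE 0.424), -0.09 on day 14 and -0.36 on day 28 (SE 0.424 each).

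Ddit4 was the member whose highest mean came latest: its order of means was day 14, then days 7, 3, 28 and 1, with sham last. The sham arrays stood at 5.52, 6.15 and 6.45, and the day 1 arrays at 6.27, 6.18 and 7.09. The day 3 signals were 7.18, 7.09 and 7.66, those of day 7 were 7.34 and 7.69, those of day 14 were 7.98 and 7.41, and those of day 28 were 6.58 and 6.54. Days 3, 7 and 14 overlapped with their neighbours in this order, day 28 did not overlap with day 3, and all arrays from day 3 on lay above every sham array. The difference from sham was 1.27 on day 3 (SE 0.268), 1.48 on day 7 and 1.66 on day 14 (SE 0.300 each), and 0.52 on day 28 (SE 0.300), after 0.48 on day 1 (SE 0.268).

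Otud1, which removes ubiquitin chains from its target proteins, had the largest day 3 difference and the widest sham spread. Its sham signals were 7.25, 5.62 and 7.60, and its day 1 signals were 6.48, 7.23 and 7.08. The day 3 signals were 8.68, 8.91 and 8.36, all above every other array except the first of day 7. Day 7 gave 8.37 and 7.04, day 14 gave 7.30 and 6.26, and day 28 gave 7.64 and 7.80. The day 3 difference was 1.83 (SE 0.459, a fold of 3.56), and without the low second sham array of day 1 it was 1.23. On days 7 and 28 the difference was 0.89 and 0.90 (SE 0.513 each), while it was 0.11 on day 1 (SE 0.459) and -0.04 on day 14 (SE 0.513).

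Slc5a3, the myo-inositol transporter, had sham signals of 6.29, 6.75 and 7.13. Its day 1 arrays ranged most widely of all groups, at 6.02, 7.27 and 8.04, ahead of 8.65, 8.03 and 8.94 on day 3. The later signals were 8.42 and 7.28 on day 7, 7.55 and 6.45 on day 14, and 7.48 and 7.66 on day 28. The arrays of days 3, 7 and 28 all lay above the sham arrays, and those of days 1 and 14 overlapped with them. The difference from sham was 1.82 on day 3 (SE 0.459, a fold of 3.52), 1.13 on day 7, 0.28 on day 14 and 0.85 on day 28 (SE 0.513 each), after 0.39 on day 1 (SE 0.459). RefSeq's interval for Slc5a3 overlaps that of Mrps6, a mitochondrial ribosomal protein gene with a probe set of its own, which differed from sham by 0.38 on day 3 (SE 0.158, limma adjusted p = 0.139).

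Dusp1, the phosphatase that acts on p38 and JNK, had sham signals of 10.02, 9.43 and 10.00 and day 1 signals of 9.77, 10.07 and 10.13. On day 3 they were 10.93, 10.84 and 10.65. On day 7 the arrays split into 10.98 and 10.00, and the later ones gave 10.13 and 9.69 on day 14 and 10.00 and 10.04 on day 28. The first day 7 array was the highest of all 15, and the arrays of days 14 and 28 stayed within about the range of sham and day 1. The difference from sham was 0.98 on day 3 (SE 0.220, a fold of 1.98), 0.67 on day 7 (SE 0.245), and 0.17, 0.09 and 0.20 on days 1, 14 and 28.

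**Figure D1:**
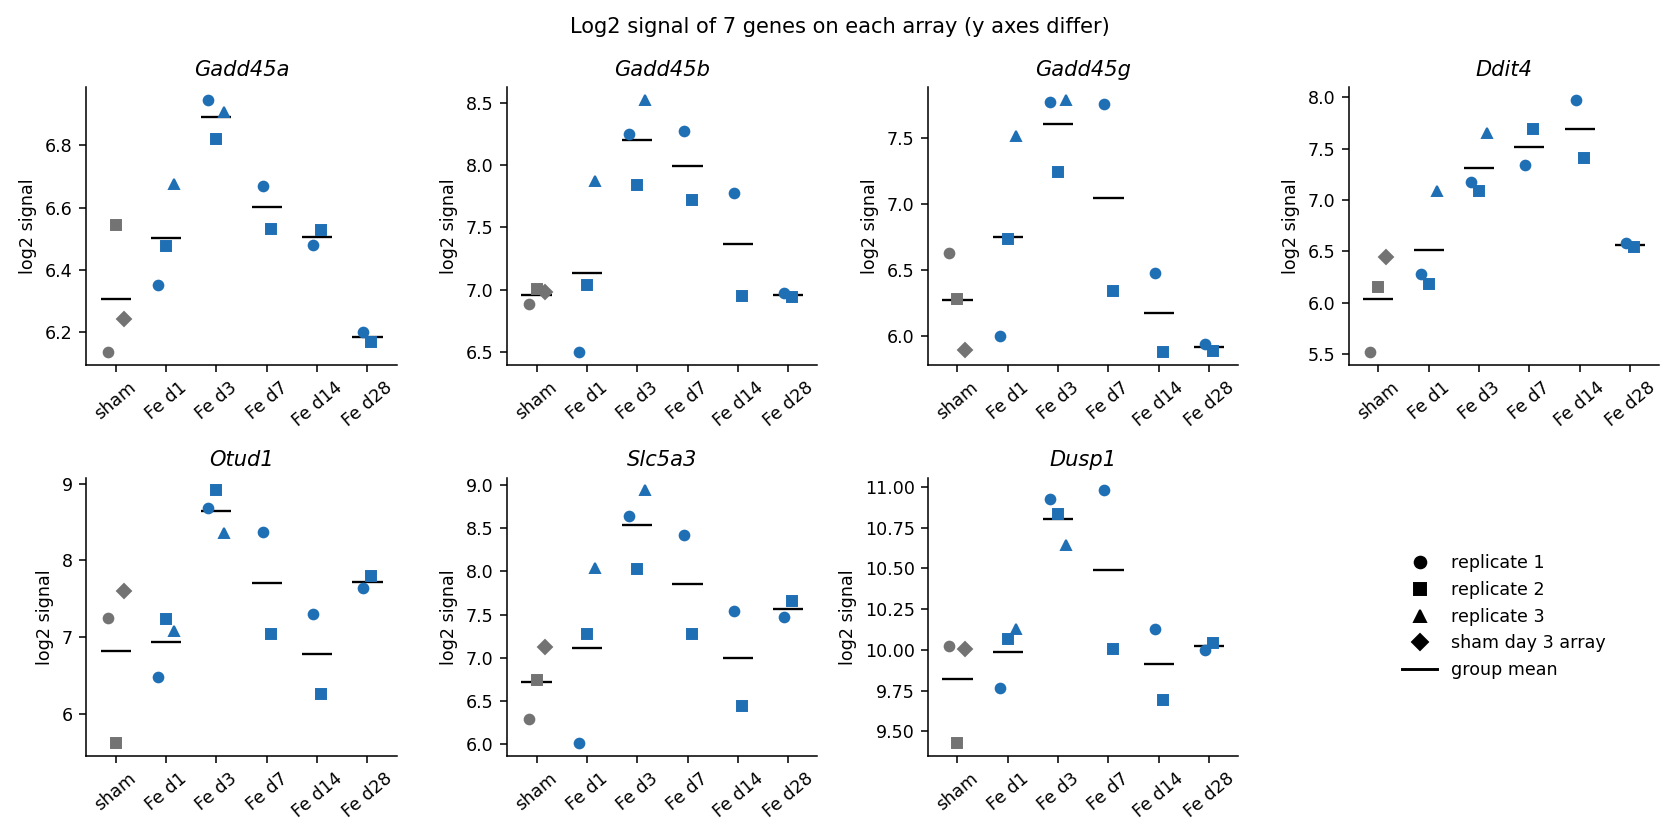
The log2 signal of the 7 genes on each of the 15 arrays, by group (sham, then iron days 1, 3, 7, 14 and 28), with points for arrays and bars for group means. All 3 day 3 arrays lie above the sham arrays in each panel, and Ddit4 is the gene whose highest mean is on day 14 (7.69).

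Over the 7 genes the median difference from sham was 0.19 on day 1, 1.27 on day 3, 0.89 on day 7, 0.20 on day 14 and 0.20 on day 28. The median over all genes tested was 0.03, 0.04, -0.03, -0.02 and 0.02 on the same days. All 7 genes had a positive difference on days 1, 3 and 7, 5 had one on day 14 and 4 on day 28. Of all genes tested, 58.4%, 57.1%, 43.5%, 45.9% and 53.6% had one on days 1, 3, 7, 14 and 28. These comparisons share the sham arrays with the day 3 difference that chose the genes, so they stand side by side as descriptions. Without the first array of day 7 the day 7 median was 0.225. Leaving out 1 array at a time moved the day 14 median between -0.127 and 0.483 and the day 28 median between 0.024 and 0.296. The day 1 median moved between 0.098 and 0.502 in the same way. The day 1 differences fell as low as -0.19 for Gadd45b, -0.49 for Otud1, -0.07 for Slc5a3 and -0.03 for Dusp1. Those of Gadd45a, Gadd45g and Ddit4 stayed positive.

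Every iron array above every sham array was found for 0 of 7 genes on day 1 (7.59% of all genes), 7 on day 3 (19.8%), 3 on day 7 (15.3%), 1 on day 14 (13.7%) and 3 on day 28 (25.7%). The day 3 count follows from how the genes were chosen, and nothing is read from it. The genes of day 7 were Gadd45b, Ddit4 and Slc5a3, the gene of day 14 was Ddit4, and those of day 28 were Ddit4, Otud1 and Slc5a3. No member of the Gadd45 family was above sham in this way on days 14 or 28.

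**Figure D2:**
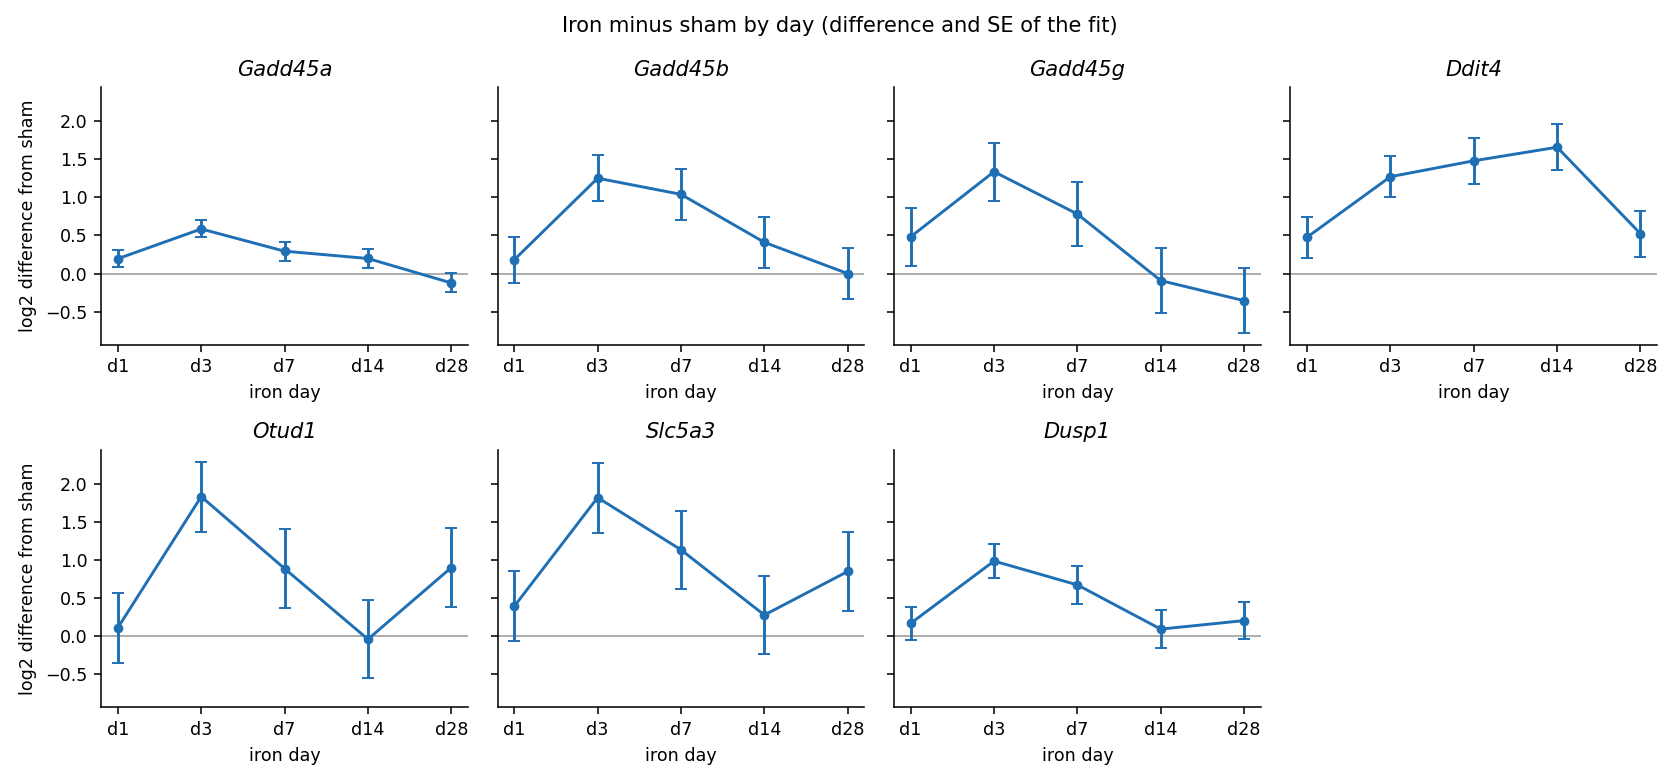
The log2 difference from sham for each gene on iron days 1, 3, 7, 14 and 28, with bars for the standard error of the fit. The Gadd45 genes and Dusp1 lie between -0.36 and 0.20 on day 28, Ddit4 reaches 1.66 on day 14, and the day 28 differences of Otud1 and Slc5a3 are 0.90 and 0.85.

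The tests that use neither the sham arrays nor the day 3 arrays in the contrast compared iron days 1, 7, 14 and 28 with each other. In the F test among these 4 days (limma, Benjamini-Hochberg adjusted over 9968 genes) 1 of 7 genes passed, where 14.8% of all genes did. That gene was Ddit4 (F = 8.00, adjusted p = 0.0308). Gadd45a followed with an adjusted p of 0.124, and it and Ddit4 had an unadjusted p under 0.05. The adjusted p was 0.151 for Gadd45b, 0.199 for Gadd45g, 0.285 for Dusp1, 0.335 for Otud1 and 0.50 for Slc5a3.

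Ddit4 rose from day 1 to day 7 by 1.00 on the log2 scale (SE 0.300, limma adjusted p = 0.0371), with both day 7 arrays above all 3 of day 1. It was 1 of 7 genes to pass this test, against 16.6% of all genes. Gadd45b had the next smallest p, at a difference of 0.86 (SE 0.334, adjusted p = 0.0945). Between day 1 and day 14, 0 of 7 genes passed in limma (0.783% of all genes) and 1 had an unadjusted p under 0.05, which was Ddit4 at 1.18 (SE 0.300, adjusted p = 0.114). Between day 1 and day 28, 0 of 7 passed in limma (10.8% of all genes) and 1 had an unadjusted p under 0.05, which was Gadd45a at -0.32 (SE 0.124, adjusted p = 0.106).

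Several alternatives ended the Ddit4 calls. The F test no longer passed without the second array of day 1 (adjusted p = 0.0683), the first of day 7 (0.0512), the first of day 14 (0.0711), or the first or second of day 28 (0.0755 and 0.0787), nor with only the arrays compared (0.0566). The difference between days 7 and 1 no longer passed without the first or second array of day 1 (adjusted p = 0.0783 and 0.114), either array of day 7 (0.124 and 0.149) or either of day 28 (0.0523 each). It also did not pass with no filter on low signals (adjusted p = 0.0507) or with only the arrays compared (0.101).

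The 7 genes shared their highs and lows within several groups. Among the iron day 1 arrays the first was lowest for 6 of 7 genes (Ddit4 was the exception) and the third was highest for 6 (Otud1 was the exception). The first day 7 array was the higher of its pair for all but Ddit4, and the first day 14 array for all but Gadd45a. On day 28 the 2 arrays split the genes 4 to 3, with deviations of at most 0.09 from the group mean. Such counts were not made over all genes, so this sharing may not be particular to the 7.

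Compared with the lowest day 3 value of each gene, the third day 1 array reached it for 3 genes (Gadd45b, Gadd45g and Slc5a3) and the other day 1 arrays for 0. The first day 7 array reached it for 6 genes, all but Gadd45a, and the second for 1, Ddit4. Each day 14 array reached it for 1 gene, again Ddit4, and the day 28 arrays for 0. Seen from the sham side, the first day 1 array was at or below the highest sham value for all 7 genes, and the second day 14 array for 6. Both limits come from the sham and day 3 arrays on which the genes were chosen. No share over all genes was computed for them, so these counts describe the arrays only.

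**Figure D3:**
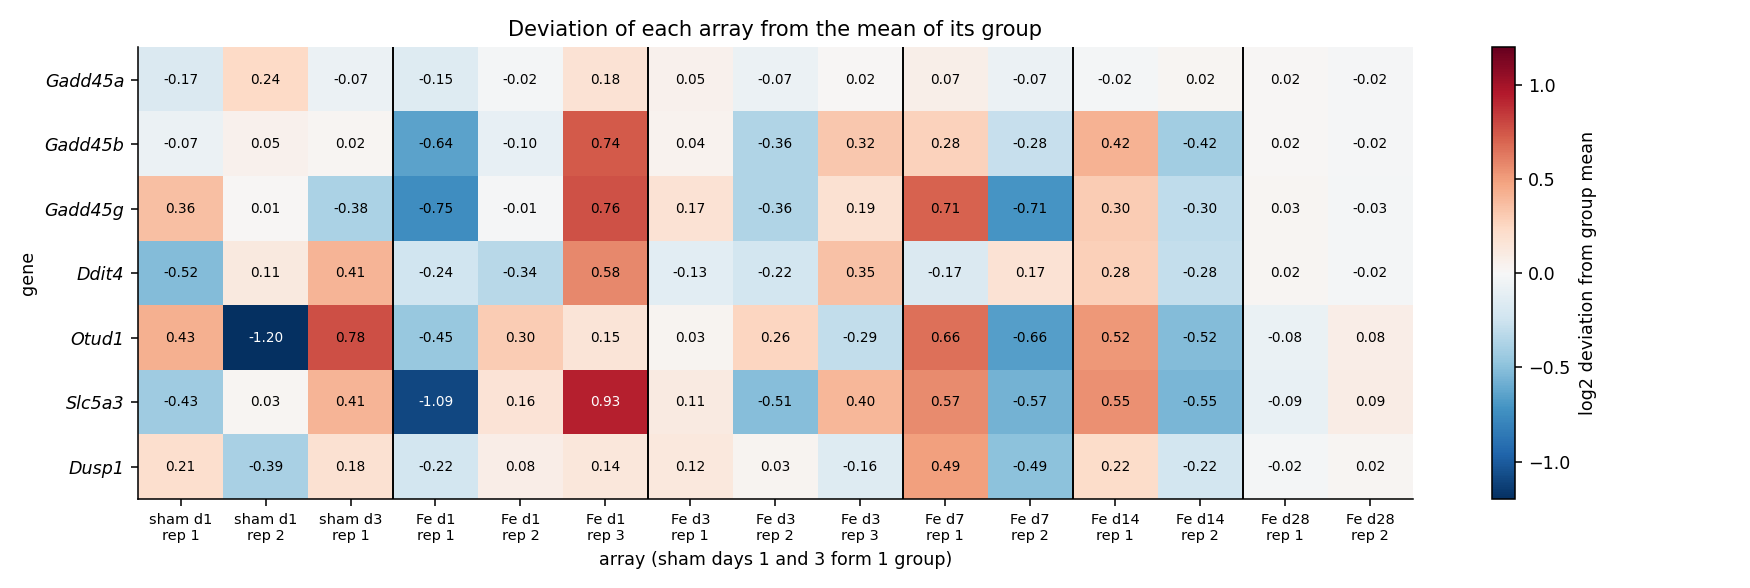
The deviation of each of the 15 arrays from the mean of its group for the 7 genes, in log2 units, with red for above and blue for below the group mean. The third day 1 array and the first arrays of days 7 and 14 are red for most genes, and the day 28 columns are nearly blank.

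Across the 15 arrays the 21 pairs of the 7 genes had a Pearson r between 0.306 and 0.926, with a median of 0.721. For deviations from the group means r ran from -0.341 to 0.940 with a median of 0.494. The closest pairs by deviations were Gadd45b with Slc5a3 (0.940), Otud1 with Dusp1 (0.915) and Gadd45b with Gadd45g (0.847). Ddit4 stood apart, with a median r of 0.495 with the other 6 genes over the arrays. The points share their arrays, and the genes were chosen for the same day 3 pattern, so these values describe the arrays and no p is given.

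By likeness over the same 15 arrays (Pearson r), Gadd45b lay closest to Slc5a3 (0.892), Arc (0.883) and Gadd45g (0.870), and Gadd45g to Arc (0.890), Gadd45b (0.870) and Rnd3 (0.869). Otud1 was closest to Nr4a3 (0.931), Dusp1 (0.926) and Jun (0.925), Slc5a3 to Dnajb1 (0.920), Jun (0.919) and Atf3 (0.906), and Dusp1 to Nr4a3 (0.955), Atf3 (0.927) and Otud1 (0.926). Ddit4 was closest to Higd1a (0.877), Atp6v1f (0.875) and Lamtor4 (0.862), and Gadd45a to Irx3 and Nudt17 (0.876 each) and Nubp2 (0.858). Among the 50 nearest genes there were 4 of the other members for Gadd45b, Gadd45g, Slc5a3 and Dusp1, 2 for Gadd45a and Otud1, and 0 for Ddit4. The 15 arrays include the sham and day 3 arrays that chose the genes, so likeness among members was partly set by that choice. Over the 9 arrays of iron days 1, 7, 14 and 28, the 21 pairs of members had a median r of 0.695 (-0.065 to 0.849).

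The partners of these genes were read from 9 lists with 96 tested genes, none of them one of the 7. On day 3, 4 list genes were higher than sham and 2 lower (limma, adjusted over all genes), where 2.79% of all genes were higher and 5.25% lower. On day 7 it was 2 and 3 genes (1.95% and 2.67% of all genes), and on day 28 it was 0 and 2 (1.41% and 0.582%), where 22 of the 96 had an unadjusted p under 0.05. On day 1 (0% higher and 0.0602% lower of all genes) and day 14 (0.592% and 0.241%) 0 list genes passed in limma, with 6 and 14 at an unadjusted p under 0.05.

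Of the kinases downstream of the Gadd45 proteins and their target Atf2, a transcription factor, 0 of 11 tested passed in limma on day 3 and 2 had an unadjusted p under 0.05 (Mapk12 and Atf2), with a median of 0.01 beside 0.04 over all genes. Map3k4, the kinase that Gadd45 proteins bind, differed from sham by 0.06 (SE 0.095) and Mapk14, which encodes p38 alpha, by -0.02 (SE 0.082). Among the 7 tested partners in cell cycle, repair and demethylation 1 was lower on day 3 and 0 higher. That gene was Npm1, a nucleolar protein, which fell by 0.42 (SE 0.10, adjusted p = 0.0258) and kept the call in 16 of 23 alternatives. It lost it without any of the day 3 arrays, the first sham array of day 1 or the sham array of day 3, or with the sham arrays of day 1 alone as control (adjusted p = 0.0938).

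Of 14 other dual-specificity phosphatases 0 passed in limma on day 3, with 5 at an unadjusted p under 0.05 and a median of 0.14. Dusp5, which acts on ERK, had the highest of these differences, at 0.70 (SE 0.284, adjusted p = 0.134), and Dusp6 the lowest, at -0.72. On day 28 Dusp7 fell by 0.80 (SE 0.122, adjusted p = 0.00383), and the call was lost without the first day 28 array and with only the arrays compared (adjusted p = 0.0538). For Otud1, 0 of 11 other OTU deubiquitinases passed in limma on day 3, with 1 at an unadjusted p under 0.05 and values from -0.21 to 0.29.

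Of the mTORC1 axis on which Ddit4 acts, 0 of 14 tested genes passed in limma on day 3, with 3 at an unadjusted p under 0.05 and a median of 0.04. Tsc1 and Tsc2 differed from sham by 0.02 (SE 0.093) and 0.01 (SE 0.075) on day 3, and by 0.06 and 0.06 on day 14, where Ddit4 was highest. Txnip, a binding partner of Ddit4, differed by 0.18 (SE 0.167) on day 3. On day 7 Rptor, the mTORC1 scaffold, fell by 0.35 (adjusted p = 0.0465), a call kept in 8 of 23 alternatives. It was lost without any of 10 arrays, those of sham and of days 3, 7 and 28, and with quantile normalization (adjusted p = 0.0594), no filter (0.0656), the sham arrays of day 1 alone as control (0.0801) or only the arrays compared (0.168).

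Ddit4 is also induced through ATF4, the transcription factor of the integrated stress response. On the list of Atf4 and its targets, 2 of 7 tested genes were higher on day 3. Ddit3, a transcription factor of that response, rose by 1.21 (SE 0.195, adjusted p = 0.00677), from 6.63 ± 0.21 in sham to 7.84 ± 0.26 (SD, n = 3 each), and passed in 23 of 23 alternatives. Chac1, which breaks down glutathione, rose by 0.82 on day 3 (SE 0.201, adjusted p = 0.0275) and by 0.96 on day 7 (SE 0.225, adjusted p = 0.0316). Its sham signals, 5.11 to 5.36, lay below the 5.5125 of the filter. It thus passed the filter only through its iron arrays, and it was not among the genes of the stricter filter. Its day 3 call was lost without the first day 3 array (0.53), the second, or any of the sham arrays, and with the sham arrays of day 1 alone as control (adjusted p = 0.0574). Its day 7 call was lost without either array of day 7, either of day 28 or either sham array of day 1. Asns and Nupr1, also targets, stood at -0.64 and -0.85 on day 3, and Atf4 itself at 0.38 (SE 0.183, limma adjusted p = 0.195).

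Among the osmolyte and inositol genes that accompany Slc5a3, 1 of 6 tested was lower on day 3 and 0 higher. Slc6a6, the taurine transporter, fell by 0.63 on day 3 (SE 0.175, adjusted p = 0.0437) and by 0.97 on day 7 (SE 0.195, adjusted p = 0.0189), opposite in sign to Slc5a3 on those days. Its day 3 call was lost without any sham array, the first or second of day 3, the second of day 1 or either of day 28, and with the sham arrays of day 1 alone as control (adjusted p = 0.0650). Its day 7 call was lost without the second day 7 array or either sham array of day 1, and with only the arrays compared (adjusted p = 0.109). Nfat5, the factor that induces both transporters under high salt, stood at -0.37 on day 3 (SE 0.149, adjusted p = 0.136) and -0.60 on day 7 (SE 0.167, adjusted p = 0.0583).

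Of 10 glucocorticoid-induced genes, a class to which Ddit4 and Dusp1 belong, 0 passed in limma on day 3, with 2 at an unadjusted p under 0.05 and a median of 0.15. On day 7 Errfi1, a feedback inhibitor of growth factor receptors, rose by 1.09 (SE 0.276, adjusted p = 0.0406), and Per1, a clock repressor, fell by 0.57 (SE 0.140, adjusted p = 0.0372). Without the first day 7 array Errfi1 stood at 0.60. The Errfi1 call was lost without that array, any sham array, the third of day 1, the third of day 3 or either of day 28, and the Per1 call without any array of sham or of days 3, 7 and 28. Both were also lost with no filter (adjusted p = 0.0515 for Errfi1 and 0.0509 for Per1), with the sham arrays of day 1 alone as control (0.0562 and 0.0816) and with only the arrays compared (0.141 and 0.129). On day 28 Per1 fell by 1.04 (SE 0.140, adjusted p = 0.00164), which passed in 23 of 23 alternatives. None of these holds a sham array of day 28, so time and exposure cannot be told apart in them. The 2 arrays of day 28 also differed least of all pairs within a group.

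**Figure D4:**
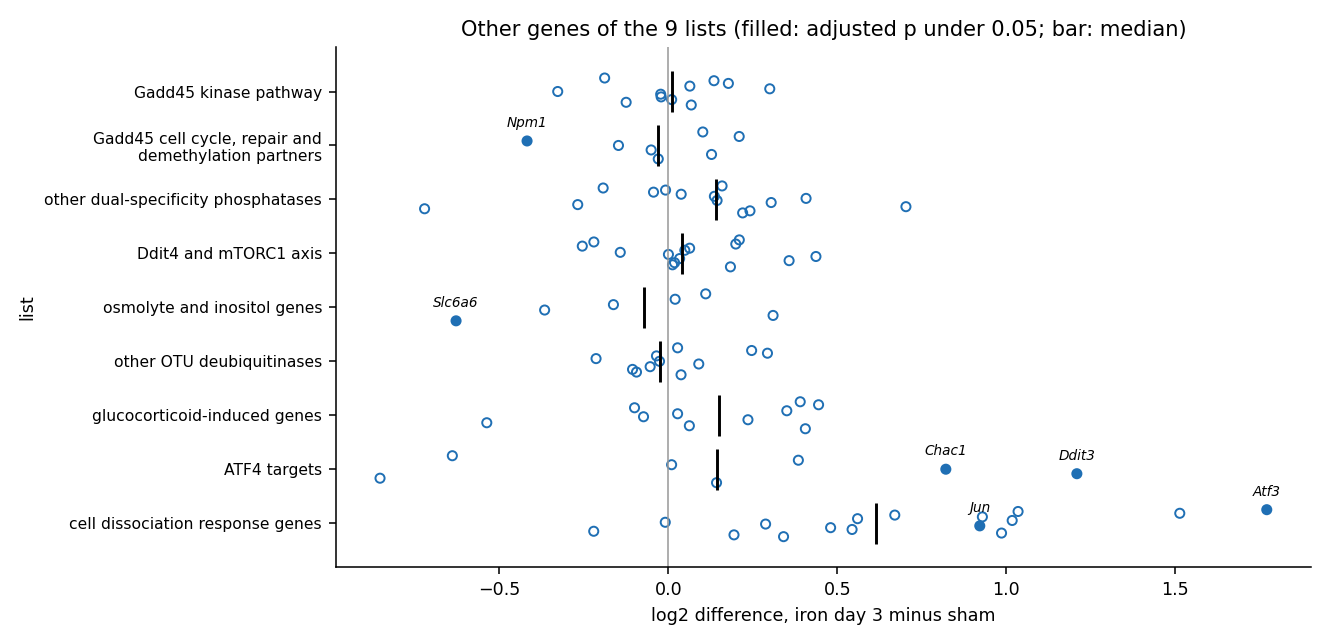
The log2 difference of iron day 3 minus sham for the 96 tested genes of the 9 lists, 1 circle per gene, filled where the adjusted p was under 0.05, with a vertical bar for the median of each list. The filled circles are Npm1, Slc6a6, Chac1, Ddit3, Atf3 and Jun, and the median of the dissociation response genes is 0.61.

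Genes known to respond to enzymatic dissociation of tissue, among them immediate early and heat shock genes, formed the last list. Of 16 tested, 2 were higher on day 3 and 9 had an unadjusted p under 0.05, with a median difference of 0.61. Atf3 rose by 1.77 (SE 0.439, adjusted p = 0.0288) and Jun by 0.92 (SE 0.248, adjusted p = 0.0388), and both calls were lost without any of the day 3 or sham arrays, that of Jun also without the second day 1 array or either day 28 array. Both were lost with the sham arrays of day 1 alone as control (adjusted p = 0.0661 for Jun and 0.0742 for Atf3), and that of Jun with median centring (0.0508). On day 7 0 of 16 passed in limma, 12 had an unadjusted p under 0.05, and the median was 0.67. The mean of this list, each gene centred over the arrays, was -0.49 to -0.17 in sham, 0.16 to 0.52 on day 3, 1.06 and -0.06 in the first and second array of day 7, -0.65 to 0.04 on day 1, -0.71 and -0.25 on day 14, and 0.22 and 0.23 on day 28. Its part in the values of the 7 genes was not tested.

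Markers of other cell types in the preparation also moved on day 3. All 9 tested fibroblast markers were lower than sham (median -1.57), as were 7 of 9 endothelial (median -1.26) and 6 of 8 macrophage markers (median -1.27), while 0 of 10 cardiomyocyte markers passed in limma, with 1 at an unadjusted p under 0.05 and a median of 0.02. Among all genes tested, 5.25% passed as lower and 2.79% as higher on day 3, and the median was 0.04. Scores are means of the markers, each centred over the arrays. The fibroblast score was 0.67 to 0.80 in sham and -0.88 to -0.67 on day 3, the endothelial score 0.38 to 0.74 and -0.85 to -0.51, and the macrophage score 0.26 to 0.57 and -0.89 to -0.55. The day 3 arrays, in which the 7 genes were high, thus had the lowest fibroblast and endothelial scores, and for macrophages only the third day 1 array, at -0.72, lay among them. Of the other markers, 0 of 4 for smooth muscle and pericytes (median -0.97), 0 of 2 for lymphocytes (-0.24), 0 of 2 for airway epithelium (-0.49) and 0 of 1 for erythroid cells (-2.46) passed on day 3 in limma, with 3, 0, 0 and 1 at an unadjusted p under 0.05. The lymphocyte score was 1.89 and 1.95 on day 28, against -0.68 to 0.71 in sham.

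Within groups the scores and the 7 genes did not keep 1 direction. On day 1 the fibroblast score was 0.50 in the first array, where 6 of the 7 genes were lowest, and -0.65 in the third, where 6 were highest. On day 7 it was 0.52 in the first array, where 6 of the genes were higher, and 0.10 in the second, with macrophage scores of 1.22 and 0.72. On day 14 the fibroblast score was -0.32 in the first array, where 6 of the genes were higher, and -0.19 in the second. The endothelial scores there were -0.42 and 0.24, and the macrophage scores 0.24 and -0.22. The part of other cell types in the differences of the 7 genes was not tested.

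**Figure D5:**
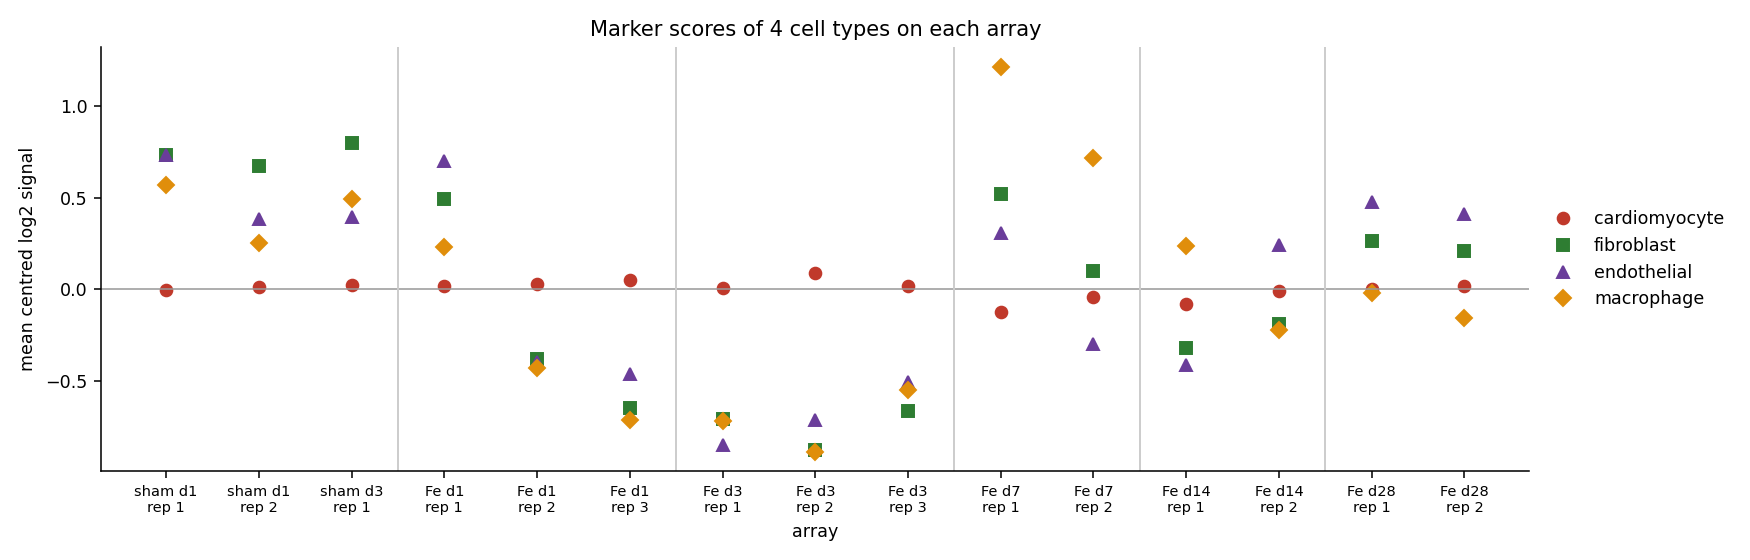
The mean centred log2 signal of the cardiomyocyte (10), fibroblast (9), endothelial (9) and macrophage (8) markers on each of the 15 arrays. The cardiomyocyte score stays between -0.13 and 0.09, and the other scores are below -0.5 in all day 3 arrays.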

How the data were processed

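Log2 signals of 34760 probe sets were deposited for the 15 arrays in 1 table, with values from 0.234 to 13.01 and 0 missing. The authors had normalized them. The submitters' processing notes name MAS5. Its part is not given in the sources used here, nor is a genome build. A gene symbol was paired with 21640 probe sets, several with 1321 and none with 11799. Named genes (19937) were read by the probe set with the highest mean, and those above the 50th percentile of the mean (9968) were tested.

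Differences were fitted with limma 3.58.1 in R 4.3.3, with 6 group means, an intensity trend, 9 residual degrees of freedom, and Benjamini-Hochberg adjustment over all genes tested at 0.05. The method was tested on simulated data. The number of arrays limits the precision. The 7 genes and the lists were chosen with earlier results of these data known. The genes named are the 7, the 3 nearest to each by Pearson r, up to 4 passing genes per list on day 3 and the partners Map3k4, Mapk14, Nfat5, Tsc1, Tsc2 and Txnip. List genes passing on days 7 and 28, Dusp5, Dusp6, Mapk12, Atf2, Asns, Nupr1 and Mrps6 were named after their values were seen.

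Of 127 list symbols, 118 were found among the named genes and 96 were tested. Markers of lymphocytes, erythroid cells, smooth muscle with pericytes, and airway epithelium were read too. Alternatives were median centring, quantile normalization, no trend, a stricter filter (6646 genes), no filter, only the arrays compared, sham day 1 as control, a replicate block and leaving out each array. Replicate numbers showed no clear pairing of the arrays and were not used in the reported fit. Python 3.11.15 with pandas 2.3.3, numpy 2.4.6 and matplotlib 3.10.9 served for summaries and plots.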

Additional observations from a re-analysis of the deposited data

Results flagged for a closer look

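Some genes lay on opposite sides of the sham mean on different days, in every array of each day, and these differences were not tested. The Gadd45a mean on day 28 was below that of day 3 by 0.708 (a difference of -0.708), that of day 7 (-0.416) and that of day 14 (-0.320), with all iron arrays of those earlier days above the sham mean and both of day 28 below it. For Gadd45g the day 28 mean differed from that of day 3 by -1.69 and from that of day 7 by -1.14 in the same way. Both day 28 signals of Gadd45a (6.20 and 6.17) lay within its sham range (6.14 to 6.55), and 1 of 2 of Gadd45g lay below every sham array. The sham and day 3 arrays are those on which the genes were chosen. How many of all genes changed side in this way was not computed.

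Ddit4 differed among iron days 1, 7, 14 and 28 by the test of that difference (limma F test, adjusted p = 0.0308), and between days 7 and 1 by 1.00 on the log2 scale (limma adjusted p = 0.0371). It was 1 of 7 genes to pass in each, near the share of all genes that passed (14.8% and 16.6%). The F test was lost without any 1 of 5 arrays and with only the arrays compared, at adjusted p from 0.0512 to 0.0787. The call between days 7 and 1 was lost without any 1 of 6 arrays, with no filter (adjusted p = 0.0507) and with only the arrays compared (0.101).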

How the results depend on the processing

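The day 3 difference from sham was above 0 for each of the 7 genes in 168 of 168 fits, the reported one included. It moved by less than the residual SD of the gene in each alternative. The genes were chosen on this difference, and every day 3 array lay above every sham array. Leaving out an array could thus not change the sign of the difference, and nothing is read from that count. Of 794 values recomputed under the 8 alternatives that leave out no array, 720 kept their side of the threshold or their size and 74 did not. Turns of sign were counted only for tested calls, where there were 0. Differences of the 7 genes from sham were left out of that count. Among them, Gadd45b on day 1 went from 0.18 to -0.07 with the replicate block. Leaving out 1 array at a time, the day 3 difference ran from 0.499 to 0.704 for Gadd45a, 1.09 to 1.43 for Gadd45b, 1.15 to 1.52 for Gadd45g, 1.01 to 1.48 for Ddit4, 1.23 to 2.22 for Otud1, 1.60 to 2.07 for Slc5a3 and 0.790 to 1.09 for Dusp1. The probe set with the second highest mean was not run, since none of the 7 genes has one. The causes of the changes below were not tested.

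With only the arrays compared, the Ddit4 F test had an adjusted p of 0.0566, and its difference between days 7 and 1 stayed at 1.00 with an adjusted p of 0.101. So 0 of the 7 genes passed either test. With no filter that difference was 1.00 (adjusted p = 0.0507), and 0 of the 7 genes passed. Median centring brought Gadd45a to -0.417 between days 28 and 1 (adjusted p = 0.0386), so 1 of the 7 genes passed. It also moved the median of all genes from 0.0033 to -0.0965 there, and from 0.019 to -0.0943 for day 28 minus sham. The Gadd45a difference between days 28 and 1 relative to all genes was thus -0.32 with and without centring. Replicate numbers showed no clear pairing by residual correlations. Those of 31 same-numbered pairs ran from -0.394 to 0.565 (median 0.062, 11 above 0.1). Those of 50 others ran from -0.565 to 0.49 (median -0.029, 14 above 0.1). In groups of 2 arrays the residuals mirror each other, so this check cannot exclude pairing. With the replicate block, Gadd45b passed between days 7 and 1 (1.12, adjusted p = 0.0229), which made 2 of the 7 genes. Ddit4 passed between days 14 and 1 (1.41, adjusted p = 0.0154), which made 1 of the 7. The number of all tested genes passing on day 3 minus sham went from 801 to 155. Under the block Npm1, Slc6a6, Chac1, Jun and Atf3 did not pass on day 3 (adjusted p = 0.153, 0.121, 0.0799, 0.130 and 0.148), nor Rptor, Per1 and Chac1 on day 7 (0.0749, 0.0914 and 0.0506).

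Leaving out 1 array at a time, the day 7 median of the 7 genes ran from 0.225 to 1.32. The F test adjusted p ran from 0.0178 to 0.0787 for Ddit4 and from 0.0324 (without the second day 7 array) to 0.962 for Dusp1. The difference between days 7 and 1 ran from 0.537 to 1.23 for Gadd45b, 0.828 to 1.29 for Ddit4 and 0.0167 to 0.992 for Dusp1, and that between days 14 and 1 from 0.898 to 1.47 for Ddit4. The number of the 7 genes passing ran from 0 to 2 in the F test, 0 to 2 between days 7 and 1 and 0 to 1 between days 14 and 1.

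Of the 9 lists, 4 genes were higher and 2 lower on day 3; these numbers were 1 and 1 with sham day 1 as control and with the replicate block, 11 and 4 with only the arrays compared, 5 lower with median centring, and 1 to 11 and 0 to 3 without 1 array. On day 7 the 2 higher became 1 with the stricter filter and 4 with the block, the 3 lower became 13 with median centring, 1 with no filter and 0 with only the arrays compared, and without 1 array they ran from 0 to 11 and 0 to 5. On day 14 the 0 higher became 1 with no filter, the 0 lower 1 with sham day 1 as control and 1 with the block, and both ran from 0 to 1 without 1 array. On day 28 the 0 higher became 1 with sham day 1 as control, 1 with the block and 4 with only the arrays compared, the 2 lower 5 with sham day 1 as control, and without 1 array they ran from 0 to 1 and 1 to 5.

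Over all genes, 6 passed on day 1 (0 to 363 without 1 array), 801 on day 3 (451 with the stricter filter, 270 with sham day 1 as control, 126 to 1083 without 1 array), 460 on day 7 (1111 with median centring, 45 with only the arrays compared, 46 to 556), 83 on day 14 (53 with the block, 25 to 167) and 199 on day 28 (107, 476 and 393 with the stricter filter, sham day 1 and the block, 41 to 477). Among iron days 1476 passed the F test (452 with only the arrays compared, from 429 without 1 array), 1658 days 7 and 1 (201, from 159), 78 days 14 and 1 (51, 27 to 132) and 1081 days 28 and 1 (133 to 1903 without 1 array). The share of higher genes among those that passed was 34.7% on day 3, 42.2% on day 7, 71.1% on day 14 and 70.9% on day 28, and 11.8%, 16.8%, 47.6% and 34.2% with median centring.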
